A study of Mus musculus with 9 samples.

Results

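The variable (V) segments of the mouse T cell receptor were followed across TDC, conventional dendritic cells (DC) and conventional T cells. Every gene symbol of the deposited count table that starts with Trav, Trbv, Trdv, Trgv or Tcrg-V was taken, and a symbol was kept as a member when its raw counts summed to at least 10 reads over the 9 libraries, so members were chosen by their measured counts. This gave 100 members among 175 matching symbols and 50508 symbols in the table. They were 71 of 128 Trav (alpha chain), 24 of 35 Trbv (beta chain), 2 of 6 Trdv (delta chain) and 3 of 6 gamma chain symbols. In the GENCODE M21 annotation 92 were receptor V genes and 8 were V pseudogenes. The members just inside the limit were Tcrg-V6 and Trav18, with 10 reads each, and Trav13-3 with 11 reads, while Tcrg-V7 and Trdv4, with 7 reads each, lay just outside. Of the 75 symbols left out, 65 had no read in any library. The rule was met almost wholly through T cells: all 100 members reached 10 reads in the T libraries alone, against 30 members in the TDC libraries alone. High counts in T cells are therefore part of the choice of members and not a result, and no p against T cells is given for a single member with fewer than 10 TDC reads.

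T cells assemble their receptor genes by V(D)J recombination, in which a V segment is joined to a J segment, with a D segment between them in the beta and delta loci. The joined exon is spliced to a constant gene, so a finished receptor transcript carries a single V segment at its 5′ end and the constant gene at its 3′ end. Most T cells of the spleen bear alpha-beta receptors, and a smaller lineage bears gamma-delta receptors. A polyclonal population uses many V segments, and the evenness of that use is a measure of how broad it is. Unrearranged V segments each have their own promoter and can also be transcribed without being joined.

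TDC, DC and T cells had been sorted from spleens of naive 8-week-old mice that carried the Zbtb46-GFP reporter on both alleles, and none had been treated. Zbtb46 is a transcription factor gene of conventional DC, and since the controls carry the same alleles no population without the reporter is present. Each population had 3 libraries, and each library was a pool of spleens, from 5 mice in replicate 1 and from 6 mice in replicates 2 and 3. The libraries were made with a stranded 3′ kit (Lexogen QuantSeq), so reads are drawn from near the 3′ end of a transcript, and a V segment is read only where priming or the fragment reaches it.

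Library totals ran from 14594850 to 22677130 reads in TDC, from 14973484 to 25676640 in DC and from 10986544 to 18071425 in T cells. Replicates of a group differed by far more than sampling noise (chi-square per degree of freedom of at least 62.35), so none repeats another. Summed markers of conventional T cells lay between 140 and 467 CPM (read counts scaled to library size, with TMM factors) in TDC, 69.7 and 139 CPM in DC, and 9719 and 11930 CPM in T libraries. Markers of conventional DC lay between 182 and 514 CPM in TDC, 2307 and 3563 CPM in DC, and 99.96 and 179 CPM in T libraries. Markers of red pulp macrophages lay between 37690 and 71010 CPM in TDC, 184 and 300 CPM in DC, and 1.83 and 4.84 CPM in T libraries. The libraries labelled TDC thus had the highest macrophage marker level. All 8 of those markers were higher than in DC and than in T cells (edgeR, Benjamini-Hochberg adjusted p under 0.05). Among all genes tested 9.55% were higher in TDC than in DC and 21.8% were higher than in T cells. B cell markers lay between 100.1 and 146 CPM in TDC, 288 and 387 CPM in DC, and 15.5 and 36.0 CPM in T libraries. Erythroid markers lay between 690 and 2206 CPM in TDC, 1.49 and 22.4 CPM in DC, and 0.774 and 1.78 CPM in T libraries. The part of these other cell types in the results below was not tested.

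Close relatives within a family can be told apart where their sequences differ, and the 3′ ends of the families whose usage is described below are shown for that reason. The sequences are the last 90 bases of the GENCODE M21 transcripts on GRCm38, each read 5′ to 3′ on the plus strand, and each ends close to the joining point. Capitals mark the bases that differ from the first sequence of the same family.
Trbv13-2: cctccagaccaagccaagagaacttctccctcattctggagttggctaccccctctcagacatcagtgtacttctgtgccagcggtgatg
Trbv13-3: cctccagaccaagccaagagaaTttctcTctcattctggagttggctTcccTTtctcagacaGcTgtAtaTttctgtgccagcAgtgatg
Trbv13-1: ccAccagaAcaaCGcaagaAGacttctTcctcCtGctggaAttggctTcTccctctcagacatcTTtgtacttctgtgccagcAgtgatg
Trav14-1: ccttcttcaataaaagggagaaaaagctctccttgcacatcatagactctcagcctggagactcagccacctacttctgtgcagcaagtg
Trav14n-3: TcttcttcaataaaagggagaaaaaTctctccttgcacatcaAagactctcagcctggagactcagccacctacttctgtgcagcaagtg
Trav14d-3-dv8: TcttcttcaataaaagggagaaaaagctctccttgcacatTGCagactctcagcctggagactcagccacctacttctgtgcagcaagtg
In these 90 bases Trbv13-3 differed from Trbv13-2 at 10 positions and Trbv13-1 at 15 positions, and the transcript of Trbv13-2 spans chr6:41121396-41121832. Trav14n-3 differed from Trav14-1 at only 3 positions and Trav14d-3-dv8 at 4 positions, and Trav14-1 spans chr14:53554022-53554558. Fewer bases therefore separate the Trav14 segments than the Trbv13 segments in this stretch.

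The mouse alpha locus holds duplicated blocks, whose copies carry the letters d and n in their names. Of the 53 Trav symbols with no read in any library, 32 have a transcript identical to that of another symbol, whereas none of the 71 Trav members does and 7 members reach 99% identity to another symbol. No beta symbol, among the 24 members or the 10 with no read, was identical to another. The treatment of reads that match several copies is not stated in the sources used here, and its part in the alpha usage was not tested.

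V segment reads were present in every TDC library, at a small fraction of their level in T cells, and were nearly missing in DC. The 100 members summed to 466, 223 and 614 reads in TDC replicates 1, 2 and 3, to 14, 0 and 26 reads in DC replicates 1, 2 and 3, and to 21546, 39275 and 28152 reads in T replicates 1, 2 and 3 (values per library follow this replicate order throughout). As CPM this was 33.3 ± 18.2 in TDC, 0.695 ± 0.787 in DC and 1635 ± 266 in T cells (SD, n = 3 each). The groups did not overlap, and the TDC mean was 2.04% of the T mean, with single TDC libraries at 0.761% to 2.80% of it. In bulk RNA, fewer cells of a type and less RNA per cell cannot be told apart. No p is given for these sums, since the members were chosen with their counts in view.

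**Figure D1:**
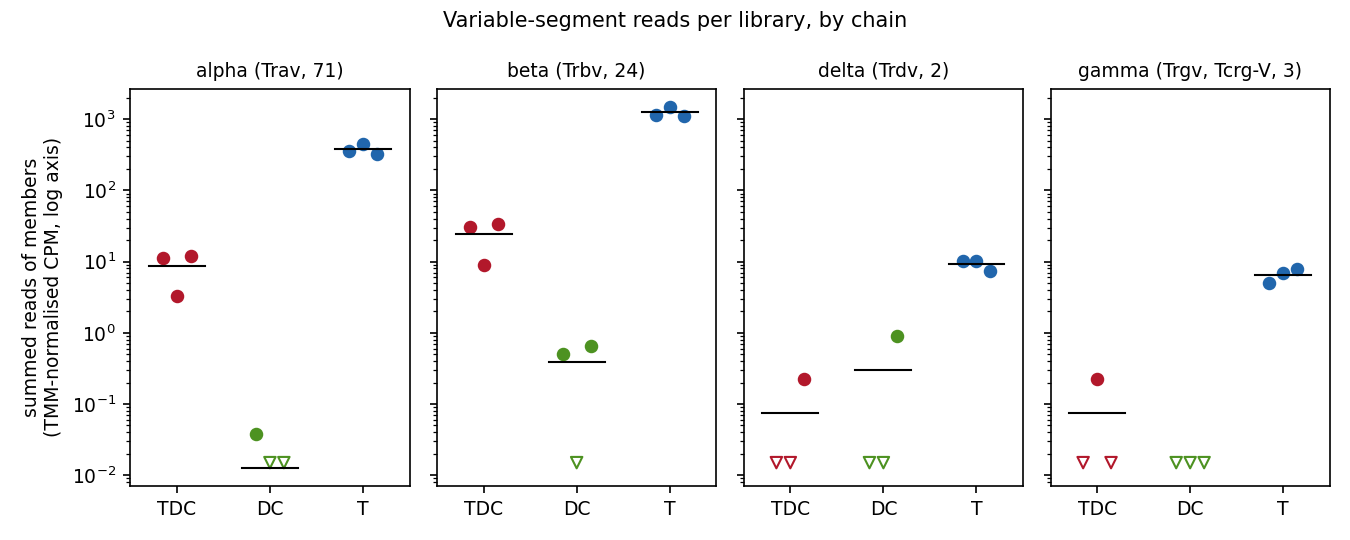
Summed V segment CPM by chain (log scale; CPM with TMM library sizes) in each TDC, DC and T library, each point being a library, black lines being group means and open triangles at the bottom marking libraries with no read. Alpha and beta sums of the 3 TDC libraries sit between 3.29 and 33.6 CPM, below the T libraries, which sit between 328 and 1479 CPM, while delta and gamma reads appear in only 1 TDC library each.

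Alpha and beta segments supplied nearly all V reads of TDC. Trav members had 123, 59 and 160 reads in TDC, 1, 0 and 0 in DC, and 5050, 8990 and 6359 in T cells, and Trbv members had 343, 160 and 451 reads in TDC, 13, 0 and 11 in DC, and 16281, 29942 and 21496 in T cells. The level in TDC was 2.33% of that in T cells for Trav and 1.97% for Trbv. Other parts of the receptor stood at similar fractions: the constant genes at 1.87%, the CD3 and zeta signalling chains at 2.03%, and the D and J segments at 2.36%. The 14 markers of conventional T cells, of which 4 are the CD3 and zeta genes, stood at 2.72% of their T cell level. TDC replicate 2 was lowest for each of these sets: V segments had 41.8, 12.4 and 45.8 CPM, constant genes had 79.6, 22.7 and 90.6 CPM, and CD3 and zeta chains had 89.7, 23.98 and 78.8 CPM in the TDC libraries.

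Of the 81 members with enough reads to be tested, 73 were lower in TDC than in T cells and none was higher (edgeR's quasi-likelihood test, adjusted p under 0.05). Among all 14708 genes tested 11.2% were lower and 21.8% higher in that comparison, and since high T cell counts chose the members nothing is read from the difference. The median log2 fold change over the 81 was −5.78 as fitted, and −5.53 with the 12 members that had no TDC read set to 3 reads over the group, beside a median of 0.14 over all genes. By chain, the lower calls were 48 of 55 Trav, 22 of 23 Trbv, both Trdv and the 1 gamma member tested. The 8 members that did not pass had log2 fold changes between −2.82 and −4.65 with adjusted p between 0.0541 and 0.151. In CPM, 94 of the 100 members were lower in each TDC library than in each T library, and 6 overlapped. The same held for 18.4% of the 20073 genes with at least 10 reads over the 9 libraries, and since the members entered through T cells nothing is read from this either.

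Relative to DC, 24 of the 81 tested members were higher in TDC, 17 of them Trbv and 7 Trav, and none was lower. Of all genes tested, 9.55% were higher and 4.60% were lower in TDC than in DC. Of the 24, 23 had reads in all 3 TDC libraries and 23 had no read in any DC library. Those 23 were at least 3.94-fold to 59.6-fold higher in TDC, counting DC at 3 reads over the group. The number of members called was 15 without DC replicate 1, so it leans on that library. The remaining 57 tested members, 48 of them Trav, had adjusted p of 0.05 or more at this depth.

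**Figure D2:**
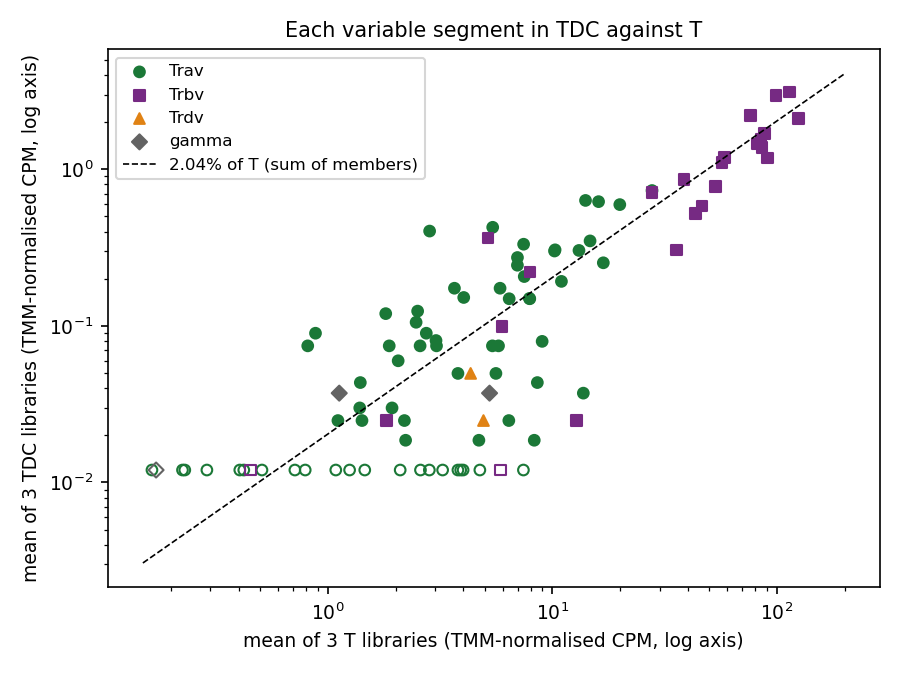
Mean CPM of each member in TDC against its mean CPM in T cells, both on log scales, with members that had no TDC read as open symbols at the bottom and a dashed line at 2.04% of the T level, the ratio of the sums. The 30 members with at least 10 TDC reads lie at 0.854% to 14.2% of their T level, with a median of 2.47%. They were picked by their TDC reads, which can raise these percentages, and the highest rests on 6, 0 and 9 TDC reads.

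Trbv13 was the leading beta family of TDC. Trbv13-2, a segment of invariant natural killer T cells and of many conventional T cells, had 49, 15 and 49 reads in TDC, no read in DC, and 1251, 2342 and 1806 reads in T cells. Scaled to CPM, TDC had 4.40, 0.836 and 3.65, against 88.0, 116 and 93.0 in T cells. Every TDC library lay below every T library and above every DC library. The log2 fold change of TDC over T cells was −5.07 (SE 0.65, adjusted p = 0.000575), and TDC was at least 56.5-fold higher than DC (adjusted p = 0.00199). Trbv13-3 had 32, 19 and 36 reads in TDC, none in DC, and 992, 1943 and 1230 in T cells, with log2 fold change −5.12 against T cells (SE 0.54, adjusted p = 0.000209). Trbv13-1 had 23, 13 and 21 reads in TDC, 1 in DC replicate 3 alone, and 909, 2179 and 1413 in T cells. Its log2 fold change against T cells was −5.83 (SE 0.59, adjusted p = 6.02e-05), the smallest adjusted p of the members, and against DC 5.84 (SE 0.84, adjusted p = 0.00165).

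Other beta segments that were abundant in T cells were also read in each TDC library and in no DC library. Trbv3 had 4.04, 0.558 and 4.77 CPM in TDC, against 114, 112 and 114 in T cells (adjusted p = 0.00107). Trbv16 had 0.628, 1.00 and 4.70 CPM in TDC, against 97.5, 158 and 119 in T cells (adjusted p = 0.000817). The T libraries were close to each other for Trbv3, whereas the TDC libraries were wide apart for both segments, replicate 2 being lowest for Trbv3 and replicate 1 for Trbv16. Trbv19 had 2.78, 0.892 and 1.42 CPM in TDC, against 90.7, 107 and 65.5 in T cells (adjusted p = 0.000154). Trbv17 had nearly equal reads in the TDC libraries, 16, 15 and 14, against 651, 1308 and 1174 in T cells. Its log2 fold change was −5.69 (SE 0.50, adjusted p = 7e-05), and it was at least 21.1-fold higher in TDC than in DC (adjusted p = 0.0011). Trbv15 had 7, 9 and 16 reads in TDC and 706, 1277 and 902 in T cells (adjusted p = 9.45e-05). Trbv31, the one beta member on the minus strand, which lies downstream of the constant genes and joins by inversion, had 26, 7 and 11 reads in TDC and 1221, 2101 and 1595 in T cells (adjusted p = 0.000281).

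Some beta members were scarce or missing in TDC. Trbv14 had 5, 3 and 4 reads in TDC and 589, 763 and 542 in T cells, a log2 fold change of −6.88 (SE 0.67, adjusted p = 0.000116) and 0.854% of its T cell level. Trbv30 had no TDC read and 24, 222 and 96 reads in T cells, which set a bound of at least 83.1-fold lower in TDC, given as a description since its reads all came from T cells. Trbv24, listed as a pseudogene in GENCODE M21, had 0, 0 and 1 read in TDC, 6, 0 and 10 reads in DC, and 204, 283 and 193 reads in T cells. Its reads are 16 of the 40 V segment reads of all DC libraries, and its difference between TDC and DC did not pass (adjusted p = 0.173). Trbv24 was thus the member with most DC reads.

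Alpha segments were spread over more members and fewer reads. Trav14-1, of the largest alpha family by reads, had 6, 11 and 14 reads in TDC, none in DC, and 329, 701 and 495 in T cells. In CPM it had 0.538, 0.613 and 1.04 in TDC and 23.1, 34.6 and 25.5 in T cells, with a log2 fold change of −5.23 (SE 0.64, adjusted p = 0.000421) and at least 13.96-fold more than in DC (adjusted p = 0.00308). Its relatives Trav14n-3 and Trav14d-3-dv8 had 6, 7 and 13 reads and 12, 2 and 8 reads in TDC, against 193, 297 and 269 reads and 317, 501 and 248 reads in T cells. Both were lower in TDC than in T cells (adjusted p = 0.00288 and 0.00392). Both were higher than in DC, where neither had a read (adjusted p = 0.00667 and 0.0184), but Trav14d-3-dv8 did not pass against DC without DC replicate 1 (adjusted p = 0.0531, range over its alternatives 0.000498 to 0.0531).

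Several alpha members had most of their TDC reads in a single library. Trav13-1 had 16, 1 and 5 reads in TDC and 229, 376 and 261 in T cells, so replicate 1 held most of its TDC reads. Its log2 fold change against T cells was −4.72 (SE 1.11, adjusted p = 0.0119), and its call against DC (adjusted p = 0.0315) was lost in 9 of 15 alternatives, with adjusted p between 0.00108 and 0.0833 over all of them and at 0.0713 without TDC replicate 1. Trav14-2 had 10, 0 and 2 reads in TDC and 233, 315 and 236 in T cells, and its call against T cells (adjusted p = 0.0134) did not pass without TDC replicate 3 (adjusted p = 0.0511, range over its alternatives 8.89e-06 to 0.0511). Trav12-2 likewise had 7, 1 and 1 reads in TDC and 202, 462 and 262 in T cells. Trav7-4 was more even, with 3, 6 and 4 reads in TDC and 124, 310 and 128 in T cells (adjusted p = 0.00286). Trav3-1 had no read in TDC or DC and 111, 153 and 134 reads in T cells, which set a bound of at least 105-fold lower in TDC than in T cells, given as a description since its reads all came from T cells.

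Reads were found for 42, 39 and 61 members in the TDC libraries, for 3, 0 and 3 members in the DC libraries, and for 96, 99 and 96 members in the T libraries. Over the TDC group 76 members had a read, 26 of them in all 3 libraries. Of those 26, 17 were Trbv and 9 were Trav, while 36 members were read in 1 TDC library only. Of the 24 members never read in TDC, 21 were Trav. In DC 5 members had a read, and Trav9n-1 and Trbv13-1 among them had 1 read each.

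The alpha segments that mark semi-invariant T cells were at or near 0 reads in TDC. Trav1, the alpha segment of mucosal-associated invariant T cells, had 0, 1 and 0 reads in TDC, none in DC, and 28, 130 and 111 in T cells. The invariant alpha segment of natural killer T cells could not be followed: Trav11 and Trav11d, 99.7% identical to each other, had no read in any of the 9 libraries. Their pseudogene copy Trav11n had 14 reads, all in T replicate 2. Beta partners of these cells in mice include Trbv13, Trbv29 and Trbv1, which conventional T cells use as well. Trbv1 had 15, 6 and 33 reads in TDC and 1288, 1835 and 1465 in T cells (adjusted p = 0.000416), and Trbv29 had 12, 2 and 5 reads in TDC and 619, 1185 and 545 in T cells (adjusted p = 0.000768). Of the 9 segments on the list of semi-invariant T cells 7 could be tested, and 7 were lower in TDC than in T cells, beside 11.2% of all genes, which the choice of members by T cell counts fixes in part. The 6 that were higher in TDC than in DC, beside 9.55% of all genes, were the Trbv members of the list.

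Delta and gamma segments were near the limit of detection outside T cells. Trdv1 had 0, 0 and 2 reads in TDC, none in DC, and 57, 103 and 75 in T cells. Trdv2-2 had 0, 0 and 1 read in TDC, 0, 0 and 15 reads in DC, and 88, 101 and 70 reads in T cells. The difference of DC from T cells did not pass (adjusted p = 0.0971), and all of its DC reads came from replicate 3. Trgv2 had 0, 2 and 0 reads in TDC, none in DC, and 63, 135 and 90 in T cells. Tcrg-V4 had 0, 2 and 0 reads in TDC and 7, 4 and 52 in T cells, and Tcrg-V6 had 10 reads in T replicate 3 and none elsewhere, so neither was tested. The delta constant gene Trdc had 0, 0 and 2 reads in TDC, none in DC, and 70, 148 and 91 in T cells.

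The amount of V sequence per constant-gene read was compared next, as a measure that does not depend on the overall level of receptor RNA. TDC had 33.3, 33.1 and 34.3 Trav reads per 100 Trac reads, and T cells had 30.7, 27.6 and 29.6. The alpha ratio was thus higher in each TDC library than in each T library, at 33.6 ± 0.639 in TDC and 29.3 ± 1.58 in T cells (SD, n = 3 each). The TDC ratios rest on only 123, 59 and 160 Trav reads beside 369, 178 and 466 Trac reads. Their counting error was not computed, and the small SD of the 3 TDC values does not measure it. Trbv reads per 100 reads of Trbc1 and Trbc2 were 66.2, 71.4 and 60.3 in TDC and 61.5, 55.7 and 60.6 in T cells. These overlapped, at 66.0 ± 5.57 in TDC and 59.2 ± 3.11 in T cells. An exact permutation test of 3 against 3 libraries cannot give a two-sided p under 0.1. DC had too few reads for the ratio, apart from 13 Trbv reads beside 30 constant reads in replicate 1.

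**Figure D3:**
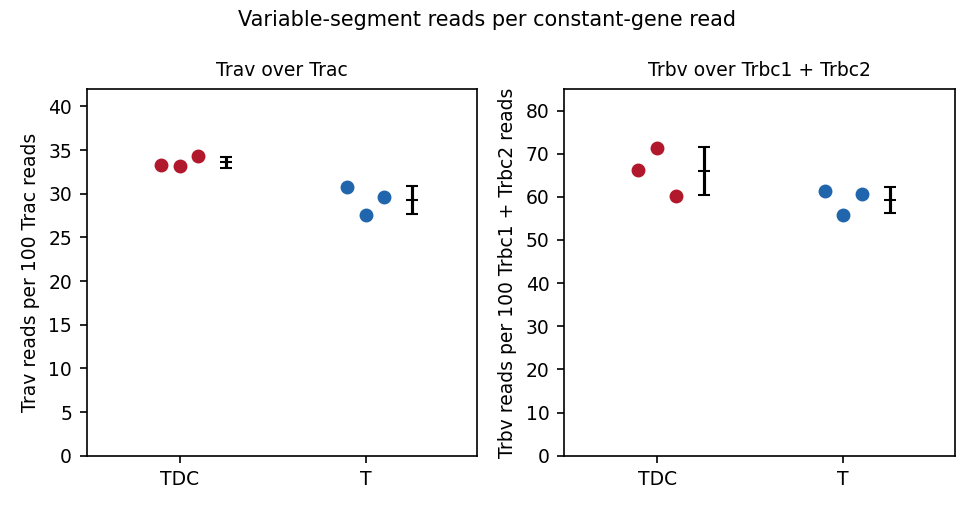
V segment reads per 100 constant-gene reads in each TDC and T library, for the alpha chain (Trav over Trac) and the beta chain (Trbv over Trbc1 and Trbc2), with the mean ± SD of 3 libraries in black. Alpha ratios of TDC, 33.1 to 34.3, sit above those of T cells, 27.6 to 30.7, and beta ratios of the 2 populations overlap.

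Segment usage, the share of a chain's V reads that each segment held, was compared between TDC and T cells, since DC had too few reads. Evenness was measured as Shannon entropy divided by its maximum over the members of the chain, after thinning every library to the same number of reads, 59 for Trav and 160 for Trbv, the depth of the shallowest TDC library. Trav evenness was 0.648, 0.632 and 0.722 in TDC and 0.772, 0.771 and 0.774 in T cells. Trbv evenness was 0.839, 0.820 and 0.836 in TDC and 0.880, 0.880 and 0.869 in T cells. Both chains were less even in each TDC library than in each T library at equal depth, with means of 0.667 ± 0.0482 in TDC and 0.772 ± 0.00173 in T cells for Trav, and 0.831 ± 0.0104 in TDC and 0.876 ± 0.0062 in T cells for Trbv (SD, n = 3 each). Without thinning, Trav evenness averaged 0.694 in TDC and 0.896 in T cells. The counts are of reads and not of molecules, and how many reads came from the same molecule was not tested.

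**Figure D4:**
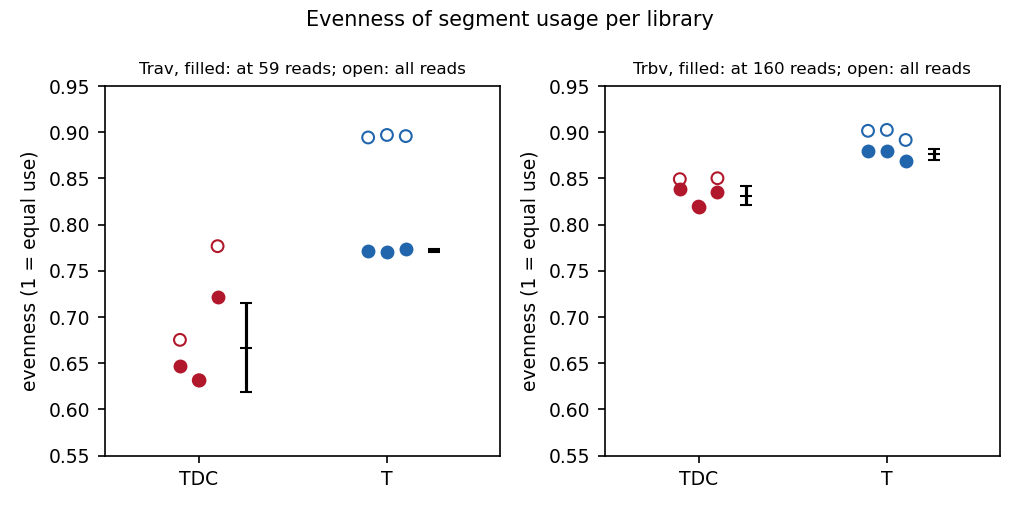
Evenness of V segment usage (Shannon entropy over its maximum, from 0 to 1) in each TDC and T library, for Trav at 59 reads and Trbv at 160 reads (filled points, with the mean ± SD of 3 in black) and at all reads (open points); the axis does not start at 0. At equal reads TDC libraries, from 0.632 to 0.722 for Trav and from 0.820 to 0.839 for Trbv, sit below T libraries in both chains.

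The effective number of segments gave the same order. The inverse Simpson index of Trav was 16.7, 13.9 and 25.7 in TDC and 35.4, 34.5 and 35.9 in T cells, and that of Trbv was 12.9, 12.9 and 12.4 in TDC and 15.9, 15.8 and 14.9 in T cells. The number of segments expected at equal depth was 19.7, 20 and 26.5 in TDC and 32, 32.1 and 32.2 in T cells for Trav. For Trbv it was 18.6, 17.0 and 19.99 in TDC and 19.9, 20.4 and 20.1 in T cells, where TDC replicate 3 overlapped T replicate 1. The leading alpha segment differed between TDC libraries. It was Trav13-1 in replicate 1, with 13.0% of Trav reads (95% Wilson interval 8.17% to 20.1%), and Trav14-1 in replicate 2, with 18.6% (10.7% to 30.4%), and in replicate 3, with 8.75% (5.28% to 14.2%). In the T libraries Trav14-1 led with 6.52%, 7.80% and 7.78%. These intervals cover counting error only.

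TDC libraries resembled each other less than T libraries did. The shared usage of 2 libraries, the sum over segments of the smaller share, was 36.0% to 37.8% between TDC libraries, 42.6% to 58.8% between a TDC and a T library, and 83.5% to 86.3% between T libraries for Trav. For Trbv it was 69.7% to 73.5% between TDC libraries, 73.9% to 83.3% between a TDC and a T library, and 90.9% to 93.3% between T libraries. The rank correlation of shares over the 24 Trbv members was 0.694 to 0.832 for pairs of TDC libraries, 0.744 to 0.907 for a TDC with a T library, and 0.955 to 0.974 between T libraries. These are descriptions over segments of 1 locus, which share libraries, and the shared usage of TDC libraries was computed at far fewer reads than that of T libraries.

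**Figure D5:**
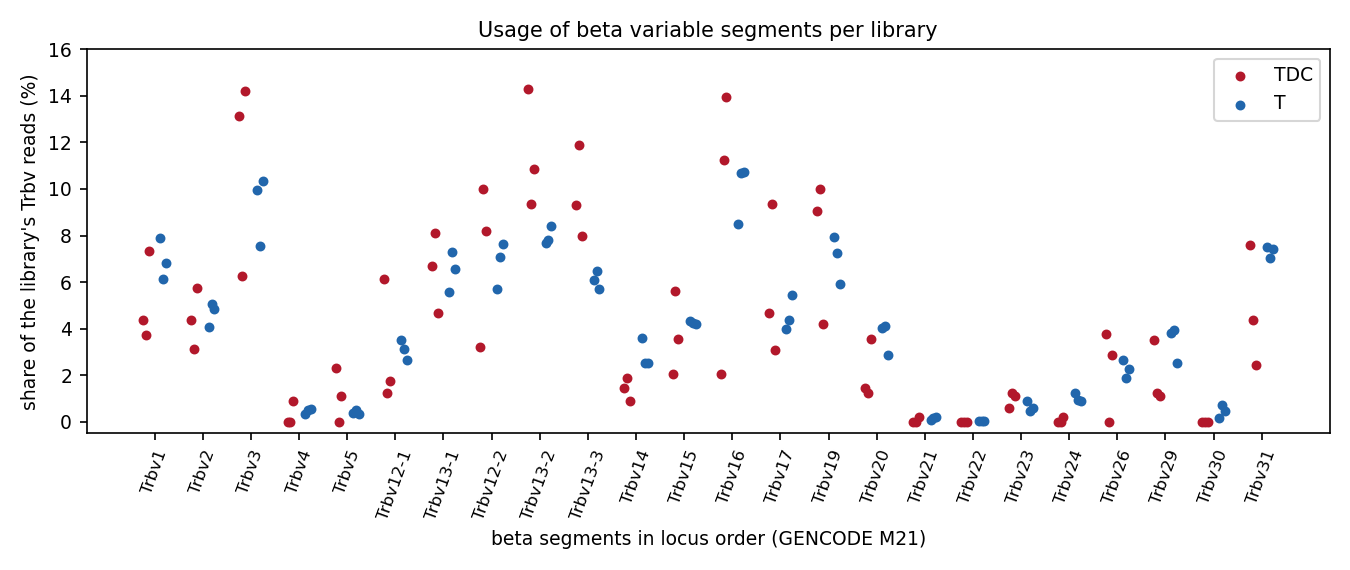
Share of Trbv reads held by each Trbv member, in percent, in locus order, each point being a TDC or T library. Trbv13-2 and Trbv13-3 lie higher in all 3 TDC libraries (9.38% to 14.3% and 7.98% to 11.9%) than in the T libraries (7.68% to 8.40% and 5.72% to 6.49%), while Trbv14 lies lower.

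Most segments held overlapping shares in the 2 populations. Of 24 Trbv members 18 overlapped, 2 held a higher share in each TDC library than in each T library, and 4 a lower one. Full separation of 3 libraries from 3 has a two-sided exact permutation p of 0.1. Among 24 or 71 segments some can therefore separate by rank order alone, and the shares were not tested. The 2 higher were Trbv13-2, with 14.3%, 9.38% and 10.9% in TDC and 7.68%, 7.82% and 8.40% in T cells, and Trbv13-3, with 9.33%, 11.9% and 7.98% in TDC and 6.09%, 6.49% and 5.72% in T cells. The lower ones were Trbv14, with 1.46%, 1.88% and 0.887% in TDC and 3.62%, 2.55% and 2.52% in T cells, and Trbv24, Trbv30 and the pseudogene Trbv22 (named after its values were seen), of which the TDC libraries together held 1 read. Of the 71 Trav members 48 overlapped and 22 were lower in TDC, but 18 of those 22 had no TDC read and none had reads in all 3 TDC libraries. Only Trav14n-3 was higher, with 4.88%, 11.9% and 8.12% in TDC and 3.82%, 3.30% and 4.23% in T cells. With 1 TDC library left out the members without overlap numbered 30 to 42 for Trav (42 without replicate 3, 37 without replicate 1) and 10 to 12 for Trbv (12 without replicate 1, 10 without replicate 2, 11 without replicate 3). Leaving a library out can only keep or raise this number, by construction, so nothing is read from the rise.

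Summed to families, which joins the reads counted for close copies, Trbv13 held 30.3%, 29.4% and 23.5% of beta reads in TDC and 19.4%, 21.6% and 20.7% in T cells. Trav14 held 30.9%, 37.3% and 26.9% of alpha reads in TDC and 24.5%, 22.5% and 22.3% in T cells. Both families were the largest of their chain in both populations, and both held a larger share in each TDC library. Trav4 held 0.813%, 1.69% and 1.25% in TDC, on 1, 1 and 2 reads, and 5.70%, 5.48% and 4.97% in T cells. Among its members Trav4-3 had 1, 0 and 2 reads in TDC and 123, 198 and 166 in T cells. The family of Trav16 overlapped, at 3.25%, 5.08% and 4.38% in TDC and 5.13%, 3.93% and 4.14% in T cells, although the single member Trav16 had 0, 0 and 1 read in TDC.

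Along chromosome 14 the alpha locus places its J segments after the last V segments. The 24 Trav members nearest the J segments, from Trav9-2 to Trav21-dv12 (chr14:53590857-53876752 on GRCm38), held 31.7%, 25.4% and 38.8% of alpha reads in TDC and 40.1%, 42.5% and 43.5% in T cells. The 24 members before them, from Trav6n-5 to Trav15-1-dv6-1 (chr14:53104871-53560247), held 51.2%, 61.0% and 40.6% in TDC and 39.7%, 37.6% and 38.4% in T cells. Neither pair overlapped, and the middle stretch contains Trav14-1, Trav14n-3, Trav13-1 and Trav7-4, so the 2 descriptions share reads. Shares of the 23 members farthest from the J segments overlapped, at 17.1%, 13.6% and 20.6% in TDC and 20.2%, 19.9% and 18.1% in T cells. Segments whose names carry neither letter held 71.5%, 72.9% and 58.8% in TDC and 75.1%, 78.2% and 80.0% in T cells, lower in each TDC library. Copies named with a d held 17.1%, 10.2% and 12.5% in TDC and 12.4%, 11.3% and 8.98% in T cells, which overlapped. Copies named with an n held 11.4%, 16.9% and 28.8% in TDC and 12.5%, 10.5% and 10.98% in T cells, which also overlapped.

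Genes that accompany the V segments were read from the same libraries. Trac, the alpha constant gene, had 33.1, 9.93 and 34.7 CPM in TDC, 0, 0.488 and 0 CPM in DC, and 1156, 1608 and 1107 CPM in T cells. Of 8 constant genes 7 could be tested, and 7 were lower in TDC than in T cells and 3 higher than in DC. Of the 4 CD3 and zeta genes, which carry the signal of the receptor, 4 were lower in TDC than in T cells and 3 were higher than in DC. Among all genes tested 11.2% were lower in TDC than in T cells and 9.55% were higher than in DC. Rag1 and Ptcra, genes of the recombinase and of the pre-receptor of developing T cells, had no read in any library, and Rag2, the other recombinase gene, had 3 reads in TDC replicate 1 alone. Of the 8 recombination genes 5 could be tested, among them Dclre1c (Artemis, which opens hairpin ends). Its CPM was 67.2 ± 9.11 in TDC, 53.2 ± 26.3 in DC and 19.0 ± 3.48 in T cells (SD, n = 3 each). TDC exceeded T cells for this gene, with a log2 fold change of 1.82 (SE 0.41, adjusted p = 0.00645). DC exceeded them too, by 1.48 on the same scale (adjusted p = 0.0214), so the higher level was not particular to TDC. Dntt, which adds bases at the joins, was lower, at 0, 0 and 8 reads in TDC and 121, 246 and 436 reads in T cells (adjusted p = 0.0138). None of the 5 passed in TDC against DC.

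DC served as the background for the V segment reads. Of the 81 tested members 80 were lower in DC than in T cells, beside 8.41% of all genes, and none was higher, beside 15.4%, the exception being Trdv2-2. Since high T cell counts chose the members, nothing is read from the difference between these shares. The median log2 fold change was −9.67 as fitted, and −6.83 with the 77 members without a DC read set to 3 reads over the group. DC replicate 2 had no V segment read in 16467028 reads. In the other DC libraries the reads came from Trbv23, with 7 reads in replicate 1, which is named here after its values were seen, from Trbv24, Trdv2-2, Trbv13-1 and Trav9n-1.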

How the data were processed

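The authors deposited a table of whole-number read counts per gene symbol for the 9 libraries, with no scaling applied. Reads had passed through STAR and featureCounts after Trimmomatic, with FastQC and MultiQC reports, per the submitters' processing notes, and the build listed there is the human hg38 although symbols and samples are mouse. Strand and multiple-match settings are not stated in the sources used here, so copies with near-identical sequence and overlapping genes are uncertain. Coordinates and sequences were looked up by symbol in GENCODE M21 (GRCm38), since the table gives none.

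Counts were fitted over all 3 groups with edgeR 4.0.16 in R 4.3.3: filterByExpr (minimum count 10, minimum total 15) left 14708 genes, with TMM factors, a robust quasi-likelihood fit, Benjamini-Hochberg adjustment over all genes at 0.05 and residual degrees of freedom of 6. The fit was also run on simulated data, where changes were placed only in genes above a minimum of reads. That run does not cover members with few or no reads in a group, and nothing is read from it for them. Limits of 3 reads over a group, used where a group had no read, and Wilson intervals cover counting error only. Each library is a pool of spleens, so the spread behind a p-value is that between pools.

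The members and gene lists were chosen with earlier results of these data known. The segments named were those leading a chain's usage in TDC or T cells (5 each), all delta and gamma members, those with the smallest adjusted p (5 for each comparison), up to 3 without overlap of shares in each direction and chain, and the semi-invariant segments. Deviations of samples with the same replicate number had correlations of −0.38 to 0.22. Between DC and T cells these were weak but all positive (0.048, 0.22 and 0.12), against −0.18 to 0.054 for different numbers. Those of TDC with DC or T cells were mostly negative. Since the labels do not say whether the samples came from the same pool, the fit has no replicate block. Alternatives were the scaling factors, the filter, DESeq2 1.42.0, limma-voom (limma 3.58.1), a replicate block, each library left out in turn, the thinning, the minimum of reads and sums over families. Promoter sequences of the segments were not analysed here.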

Additional observations from a re-analysis of the deposited data

How the results depend on the processing

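None of the tests of a named member changed direction under the alternatives run, where the main fit or the alternative passed the threshold. Changes of sign where neither passed were not counted. Over all genes, TDC against DC gave 2081 calls, 3249 with DESeq2's Wald test, and 1190 (without TDC replicate 2) to 1976 with a library left out. Members higher in TDC than in DC numbered 24, and 15 (without DC replicate 1) to 26 (without TDC replicate 2) with a library left out. Members lower in TDC than in T cells numbered 73, and 53 to 84 with a library left out. Without a filter on low counts 76 members were called for TDC against T cells and 28 for TDC against DC, with DESeq2 76 and 33, and with limma-voom 81 and 20. Scaling by library size alone moved the median log2 fold change over all tested genes by −0.61 for TDC against T cells. Higher genes then made up 42.9% instead of 65.9% of the calls, 80 members were called lower, and the summed V segments of T cells averaged 2006 CPM. For TDC against DC that scaling moved higher genes to 53.1% from 67.5% of the calls, and for DC against T cells to 50.2% from 64.7%.

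Trav evenness averaged 0.586 in TDC and 0.678 in T cells over all matching symbols with no minimum of reads, and 0.697 in TDC and 0.790 in T cells over families. Without thinning it averaged 0.896 in T cells. Trbv evenness averaged 0.743 in TDC and 0.783 in T cells with no minimum, and 0.756 in TDC and 0.824 in T cells over families, and without thinning it averaged 0.899 in T cells. The maximum by which entropy is divided is higher over more symbols, by construction. Trav segments without overlap of shares numbered 23, 6 when summed to families, and 23 to 42 with a library left out (42 without TDC replicate 3). For Trbv this was 6, and 6 to 12 with a library left out (12 without TDC replicate 1). By construction, a library left out cannot lower either number.

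Libraries with the same number share a sample-name prefix and a pool size in the labels. The labels do not say whether the populations came from the same pool. Deviations of libraries with the same number went together weakly between DC and T cells, and not between TDC and either. With a replicate block 3946, 1486 and 2836 genes were called in TDC against T cells, in TDC against DC and in DC against T cells, and 61, 18 and 76 members. Of the 28 named members tested, the block changed no call against T cells and ended 2 against DC, those of Trav13-1 (adjusted p = 0.0717) and Trav7-4 (adjusted p = 0.0617). Over 420 values under alternatives for each comparison, 416 stayed on the same side of the threshold against T cells, the exceptions being 1 for Trav14-2 and 3 for Trdv2-2, each without a TDC library, and 400 against DC, where Trav13-1, Trav7-4, Trbv29 and Trav14d-3-dv8 lost the call in at least 1 alternative, and Trav12-2 and Trav14-2 gained it. At this depth 36 members were read in a single TDC library.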

Other observations

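Immunoglobulin V segments, the counterpart of these segments in B cells, showed another distribution. The 29 such symbols with at least 10 reads summed to 78, 48 and 65 reads in TDC, 352, 145 and 2 reads in DC, and 2, 35 and 34 reads in T cells. This was a CPM of 4.84 ± 2.16 in TDC, 7.90 ± 6.94 in DC and 1.21 ± 0.923 in T cells (SD, n = 3 each). TDC and T libraries did not overlap, while TDC and DC did. The 60 alpha J segments had 47, 14 and 90 reads in TDC, 2, 0 and 0 in DC, and 1942, 3228 and 1981 in T cells, the TDC level being 2.94% of that of T cells.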
